A study of Homo sapiens with 8 samples.

Results

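The genes described here encode the enzymes that build and trim glycans in the Golgi of LP-1 cells, a human multiple myeloma line. They were chosen by symbol as the numbered members of 11 enzyme families (MAN1A, MAN1B, MAN1C and MAN2A taken as 1 family, MGAT, GALNT, B3GNT, B4GALT, B3GALT, FUT, ST3GAL, ST6GAL, ST6GALNAC and ST8SIA). The rule matched 82 of the 18564 genes in the expression table. ST6GALNAC4 and MAN1C1 had been singled out because their levels varied strongly between libraries, so their values are a description and they are left out of the counts of members that passed a test. The question was which enzyme families shared their pattern.

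RNA was sequenced from wild-type (WT) LP-1 cells and from a bortezomib-resistant (BR) derivative of the same line, bortezomib being a proteasome inhibitor used against myeloma. Both lines were sampled after 24 h with vehicle (DMSO) or with SI-2, which blocks the coactivator SRC-3, at 25 nM. Each of these 4 conditions had 2 libraries. The BR cells are a single derived line, so a difference between BR and WT is a difference between these cultures, and nothing in the labels says whether the replicates were separate cultures. Library totals lay between 17997771 and 18570027 estimated counts. Of 9 plasma cell and myeloma markers, 8 had a mean of at least 1 FPKM (fragments scaled by gene length in kilobases and by library size) and SLAMF7 had not (0.33 to 0.60 FPKM). In such bulk samples a lower level in each cell and fewer cells with that RNA cannot be told apart. In BR SI-2 replicate 2, COL1A1, a collagen gene of fibroblasts, had 1032 counts, against 2 to 6 in the other 7 libraries. The same library was also highest in COL1A2 (155 counts, against 0 to 4). It was highest too in the epithelial markers EPCAM (26 against 0 to 1), KRT18 (60 against 20 to 32) and KRT8 (81 against 41 to 66). WT vehicle replicate 2 lay very close to WT SI-2 replicate 2 (median absolute difference of 0.11 in log2 CPM, counts scaled to library size), as did BR vehicle replicate 2 to BR SI-2 replicate 2 (0.09), whereas the other pairs of libraries differed by 0.16 to 0.31.

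Proteins that pass through the secretory pathway receive N-glycans on asparagine and mucin-type O-glycans on serine or threonine. N-glycans arrive in the Golgi rich in mannose, are trimmed by mannosidases, branched by the MGAT N-acetylglucosaminyltransferases, lengthened with galactose and capped with fucose or sialic acid. O-glycans are started by the GALNT enzymes, and extended and sialylated by related enzymes. Plasma cells, from which myeloma arises, secrete glycosylated antibody and depend on this pathway.

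Upstream sequences were taken for members whose patterns run through the results below. RefSeq promoter windows (GRCh38.p14, 250 bases before to 50 bases after each annotated start) matched 60 of the 82 members, with 101 windows. They are shown for ST6GALNAC4 and MAN1C1, and for MGAT1 and FUT1, the members most like MAN1C1. Capitals mark matches on either strand to 6 motifs. They were the unfolded protein response element (core letters TGACGTG), the ER stress element and the amino acid response element (core letters TTGCATCA). The others were the cAMP response element (TGACGTCA), the GC box, with the letters GGGCGG, and the CCAAT box, which the ER stress element contains. Each sequence is written 5′ to 3′ along the gene.
ST6GALNAC4, chr9:127916992-127917291, minus strand: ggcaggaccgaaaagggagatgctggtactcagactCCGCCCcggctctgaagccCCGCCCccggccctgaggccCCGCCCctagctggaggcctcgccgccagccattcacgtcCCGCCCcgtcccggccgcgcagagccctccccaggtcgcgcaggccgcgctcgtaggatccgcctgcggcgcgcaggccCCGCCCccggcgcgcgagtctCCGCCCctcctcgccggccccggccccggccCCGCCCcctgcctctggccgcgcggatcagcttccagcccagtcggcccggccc
MAN1C1, chr1:25616541-25616840, plus strand, window 1 of 2: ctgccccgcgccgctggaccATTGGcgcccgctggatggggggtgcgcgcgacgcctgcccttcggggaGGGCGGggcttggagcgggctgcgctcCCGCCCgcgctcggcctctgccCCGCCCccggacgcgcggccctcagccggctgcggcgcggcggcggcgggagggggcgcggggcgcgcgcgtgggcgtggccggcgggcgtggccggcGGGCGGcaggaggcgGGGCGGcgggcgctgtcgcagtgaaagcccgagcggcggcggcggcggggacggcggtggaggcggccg
MGAT1, chr5:180815567-180815866, minus strand, window 1 of 6: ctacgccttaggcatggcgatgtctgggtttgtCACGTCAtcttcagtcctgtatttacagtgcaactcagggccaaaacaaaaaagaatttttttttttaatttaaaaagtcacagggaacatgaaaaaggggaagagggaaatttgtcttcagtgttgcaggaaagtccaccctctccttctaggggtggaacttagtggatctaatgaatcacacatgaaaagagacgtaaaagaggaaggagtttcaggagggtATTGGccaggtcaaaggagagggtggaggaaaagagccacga
FUT1, chr19:48755309-48755608, minus strand, window 1 of 2: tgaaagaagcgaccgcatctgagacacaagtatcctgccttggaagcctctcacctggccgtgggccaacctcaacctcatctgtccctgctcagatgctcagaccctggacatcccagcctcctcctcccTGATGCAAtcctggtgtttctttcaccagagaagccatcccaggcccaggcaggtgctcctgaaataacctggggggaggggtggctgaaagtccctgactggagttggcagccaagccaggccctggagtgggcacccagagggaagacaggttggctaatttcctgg
The ST6GALNAC4 window was 79.0% G and C and held 7 matches to the GC box and to no other motif, and the MAN1C1 window (85.3% G and C) held GC boxes and a CCAAT box. The MGAT1 window held the letters of the unfolded protein response element and the FUT1 window those of the amino acid response element. The windows shown are the first of each gene, and of the 5 other MGAT1 windows 3 held GC boxes only and 2 no motif searched, while the other FUT1 window held GC boxes only. The unfolded protein response letters were in 1.98% of member windows (MGAT1 and B3GNT2) and in 1.97% of all 35116 windows, and the amino acid response letters in 0.99% (FUT1 only) and 0.866%. The cAMP response element was in 1.98% of member windows, all of ST3GAL5, and in 1.85% of all windows. GC boxes were in 65.3% of member windows and 45% of all windows, CCAAT boxes in 33.7% and 34.6%, and the ER stress element in none and 0.0769%. A match is a description of the letters and not a shown binding site.

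Each of the 11 families had a leading member with a mean of at least 5.67 FPKM. Levels between genes are compared in FPKM, which divides by gene length. Of the 82 members, 22 had a mean of at least 10 FPKM, 51 of at least 1 FPKM and 31 had a mean below 1 FPKM. B4GALT3, which adds galactose to N-acetylglucosamine, was the highest at 186 ± 44.6 FPKM (SD, n = 8 libraries) and alone made up 20.6% of the summed mean FPKM of all members. Next came ST3GAL6, a sialyltransferase of galactose ends (98.4 ± 18 FPKM, n = 8), and GALNT2, which starts O-glycans (52.1 ± 8.27 FPKM, n = 8).

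**Figure D1:**
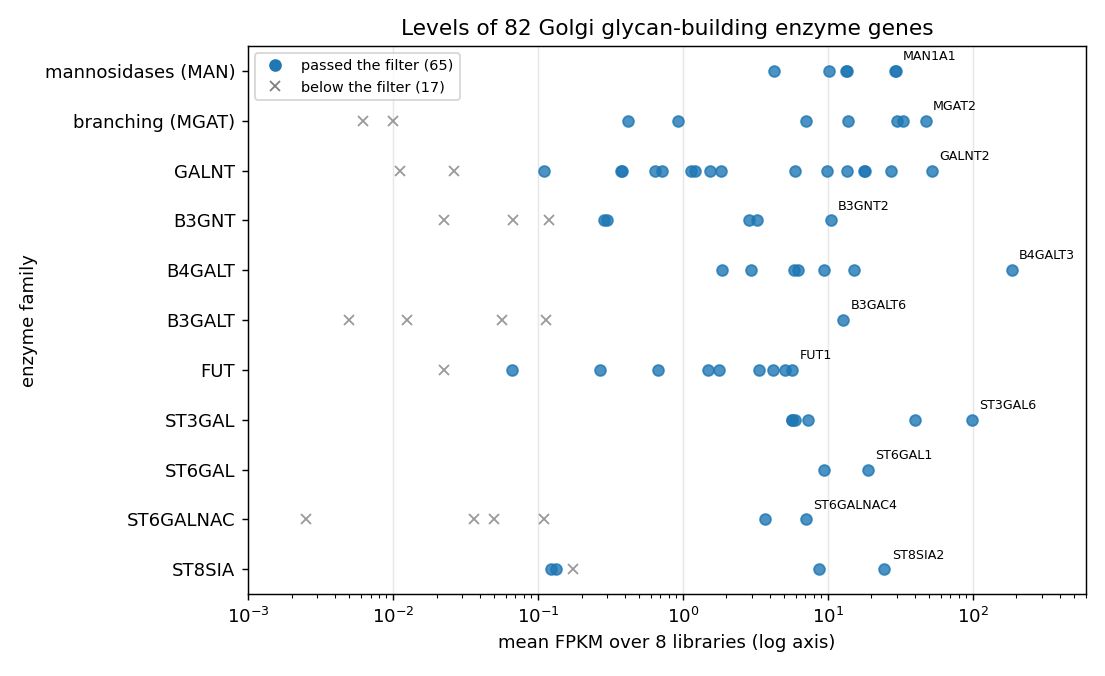
Mean level of each of the 82 members over 8 libraries in FPKM on a log axis, by enzyme family, with filled circles for the 65 members that passed the filter on low counts, crosses for the 17 that did not, and the highest member of each family named. B4GALT3 (186 FPKM) and ST3GAL6 (98.4 FPKM) stand to the right of all others.

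The remaining families were led by MGAT2 (47.4 FPKM), which adds the second branch of the N-glycan, MAN1A1 (29.5 FPKM), a mannosidase that trims before branching, ST8SIA2 (24.6 FPKM), which makes polysialic acid, ST6GAL1 (19.0 FPKM), which sialylates antibody and other N-glycans, B3GALT6 (12.8 FPKM), which builds the linker of proteoglycans, B3GNT2 (10.5 FPKM), which extends lactosamine chains, ST6GALNAC4 (7.02 FPKM), which sialylates GalNAc, and FUT1 (5.67 FPKM), which makes the H blood group antigen. The order of the lower places is not firm, since ST6GALNAC4 ranged over the libraries from 2.33 to 13.0 FPKM and FUT1 from 2.65 to 10.8 FPKM. The 17 members that did not pass the filter had at most 17 counts in any library, and 8 of them had at most 3 counts in every library. They were MGAT4C, MGAT4D, GALNT8, GALNT9, B3GNT3, B3GNT4, B3GNT5, B3GALT1, B3GALT2, B3GALT4, B3GALT5, FUT5, ST6GALNAC1, ST6GALNAC2, ST6GALNAC3, ST6GALNAC5 and ST8SIA5. Of the B3GALT family only B3GALT6 was therefore tested, and of the ST6GALNAC family only ST6GALNAC4 and ST6GALNAC6.

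The ST6GALNAC family had a summed level of 15.9 to 17.4 FPKM in 3 WT libraries, 10.2 FPKM in WT SI-2 replicate 1 and 5.21 to 8.66 FPKM in the BR libraries. The B4GALT family, the highest family, had 221 to 297 FPKM in the WT and 173 to 216 FPKM in the BR libraries, so that neither of these families overlapped between the lines in FPKM. Of all single genes, 4.36% lay wholly lower in BR cells in CPM. The B4GALT gap was narrow, and B4GALT3 itself overlapped in CPM (355 in WT SI-2 replicate 1, 358 in BR SI-2 replicate 1). Both family sums follow their leading member, ST6GALNAC4 or B4GALT3, and ST6GALNAC4 was chosen for its spread. The ST3GAL family had 169 to 184 FPKM in WT cells, and its lowest values, 135 and 133 FPKM, were in BR vehicle and BR SI-2 replicate 2. In the MGAT family the sums ran from 110 FPKM in WT SI-2 replicate 1 to 160 FPKM in WT vehicle replicate 2, with the BR libraries between. The GALNT (145 to 164 FPKM), mannosidase (88.3 to 107 FPKM), ST8SIA (31.3 to 38.3 FPKM), ST6GAL (24.3 to 31.2 FPKM) B3GNT (15.7 to 19.1 FPKM), B3GALT (9.16 to 15.8 FPKM) and FUT (17.7 to 26.9 FPKM) sums are given by their ranges over the 8 libraries.

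ST6GALNAC4 had the widest spread of all tested members. Its estimated counts in WT cells were 396 and 355 with vehicle and 190 and 377 with SI-2, and in BR cells 175 and 73 with vehicle and 98 and 71 with SI-2. All 4 WT libraries were above all 4 BR libraries, with the lowest WT library (SI-2 replicate 1) just above the highest BR library (vehicle replicate 1). In CPM the means were 21.1 ± 2.03 (vehicle) and 15.7 ± 7.44 (SI-2) for WT, and 6.88 ± 4.25 (vehicle) and 4.53 ± 1.19 (SI-2) for BR cells (SD, n = 2 each). The highest library was 6.10 times the lowest, and the SD of log2 CPM over the 8 libraries was 1.07, rank 118 of the 13896 genes tested over the 4 conditions. Within conditions the SD was 0.62, so a large part of the spread lay between replicates that shared a label.

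MAN1C1, a Golgi mannosidase that removes mannose before branching, split the libraries in another way. Its counts in WT cells were 251 and 667 with vehicle and 141 and 542 with SI-2, and in BR cells 263 and 144 with vehicle and 168 and 130 with SI-2. Only replicate 2 of WT vehicle and of WT SI-2 stood high, and the other 6 libraries overlapped irrespective of line and treatment. In CPM these were 36.9 and 30.1 in the 2 high libraries and 6.76 to 14.9 in the rest. The highest library was 5.46 times the lowest, the SD of log2 CPM over the 8 libraries was 0.92 (rank 190), and the SD within conditions was as large (0.92). How its reads divide among its 6 transcripts in the table is uncertain, since the leading transcript took 0 to 70.6% of them depending on the library.

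**Figure D2:**
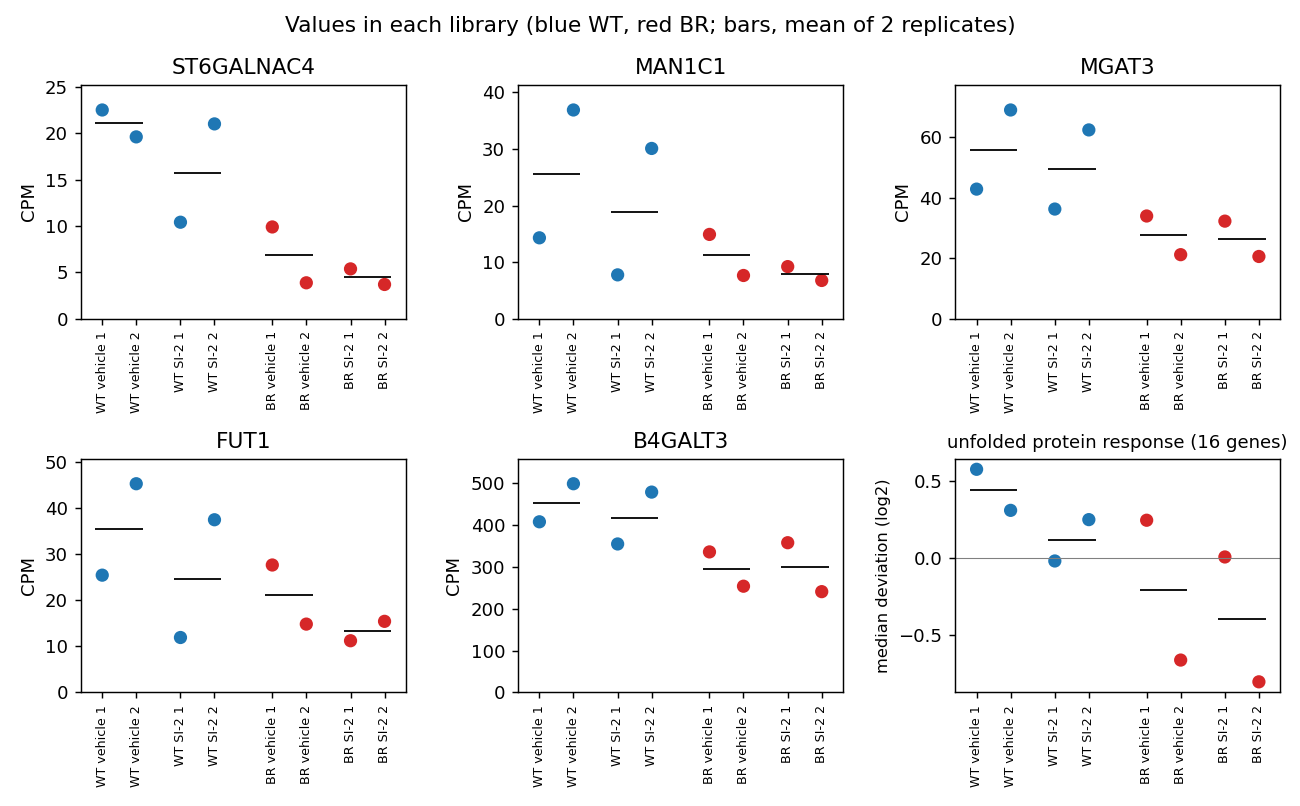
Level in each of the 8 libraries (WT blue, BR red) of ST6GALNAC4, MAN1C1, MGAT3, FUT1 and B4GALT3 in CPM, and the median deviation in log2 CPM of 16 unfolded protein response genes, with a bar at the mean of each condition's 2 libraries. ST6GALNAC4 is lower in every BR library, whereas MAN1C1 and FUT1 are highest in WT vehicle and WT SI-2 replicate 2.

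Over the other members the spread was smaller, and a high spread was mostly found at low counts. The median SD of log2 CPM was 0.29 over the 65 tested members and 0.23 over all 13896 tested genes, and within conditions 0.30 and 0.23. Leaving aside ST6GALNAC4 and MAN1C1, which were chosen for their spread, 6 of the 63 other members reached an SD of at least 0.5. This was a share close to the 9.19% of all tested genes. The 6 were FUT1 (0.76), GALNT11 (0.72), GALNT4 (0.68), MGAT3 (0.64), FUT3 (0.59) and B3GNT8 (0.54). GALNT11 (6 to 42 counts), FUT3 (4 to 22 counts), B3GNT8 (9 to 27 counts) and GALNT4 (20 to 92 counts) have few reads, so that counting error alone is large in them. The highest GALNT11 count, 42, was in BR SI-2 replicate 2, the library with the COL1A1 reads, against 6 to 20 counts elsewhere, and the part of those reads in it was not tested. FUT1 (205 to 816 counts) and MGAT3 (397 to 1248 counts) varied widely at high counts. At the other end, GALNT7 and MGAT4B, which adds an N-glycan branch, had SDs of 0.10, the lowest of the tested members.

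**Figure D3:**
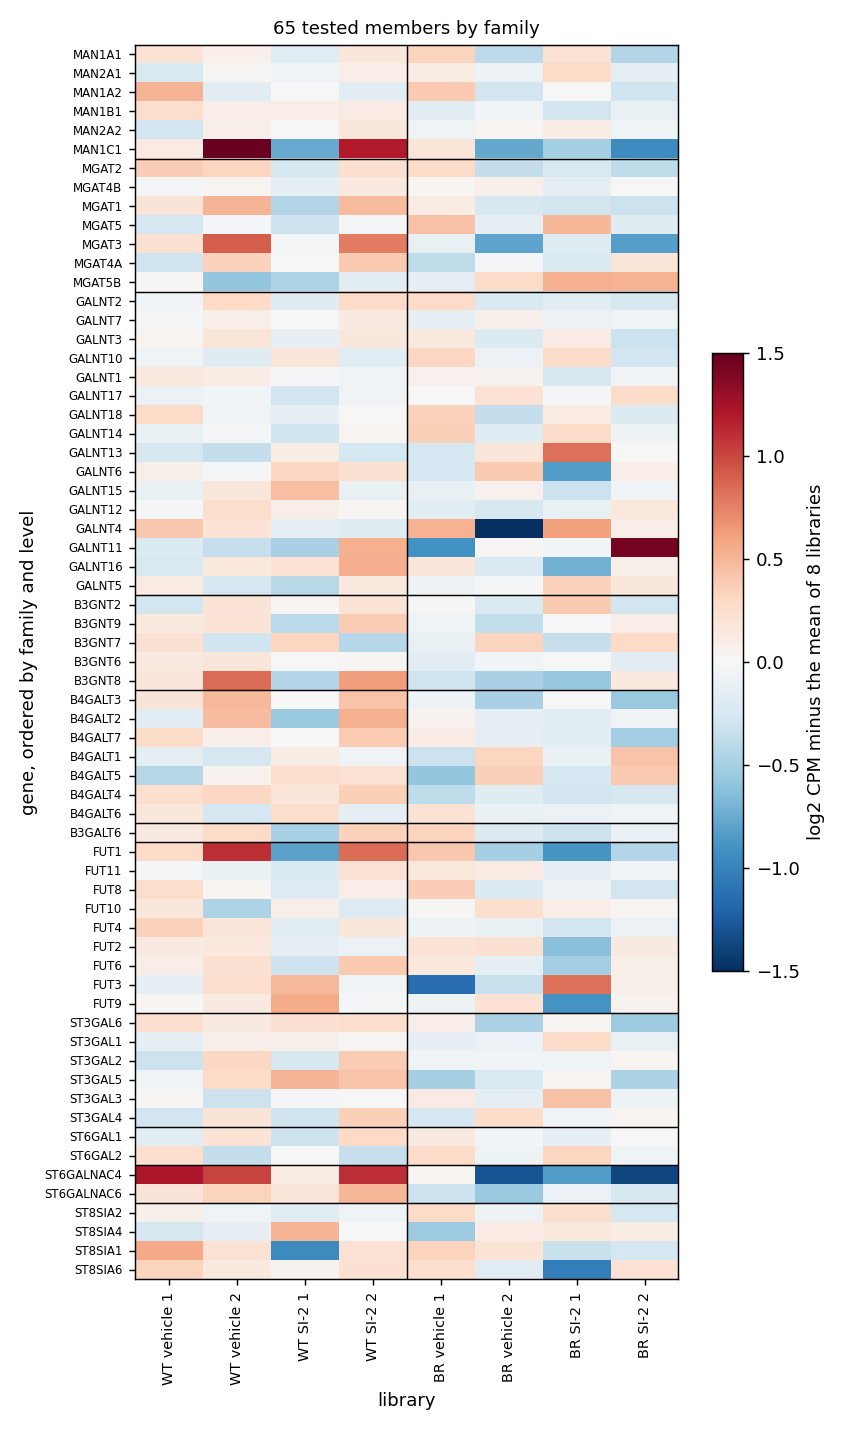
Deviation of log2 CPM from each gene's mean over 8 libraries for the 65 tested members, ordered by family (black lines) and by level within the family, with red above and blue below the mean. The strongest colours are in ST6GALNAC4, MAN1C1, FUT1 and MGAT3, and otherwise in members with few counts such as GALNT11 and GALNT4.

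Pearson's r of log2 CPM over the 8 libraries was used to describe which families shared the pattern. It is given with no p, since the libraries share lines, treatments and replicate numbers and are not independent points. ST6GALNAC4 and MAN1C1 had an r of 0.81 with each other. Both also followed the first component of all tested genes, the direction of largest shared variation between libraries (30.0% of the variance). Their r with it was 0.94 and 0.96, so the pattern was not particular to glycan enzymes. Of the 63 other tested members, 13 (20.6%) had an r of at least 0.7 with ST6GALNAC4 and 14 (22.2%) with MAN1C1, against 12.3% and 13.3% of all tested genes. With both together it was 8 members (12.7%) against 7.92% of all tested genes, namely MGAT1, MGAT2 and MGAT3, B4GALT3 and B4GALT7, GALNT2 and GALNT3, and FUT1. The count and its distance from all genes moved with single libraries. It was 5 members (7.94%, all genes 7.04%) without WT SI-2 replicate 2 and 13 (20.6%, all genes 11%) without WT SI-2 replicate 1, and 5 (7.94%, all genes 6.04%) on log2(FPKM + 1).

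By family, of the 7 tested MGAT members 3 had an r of at least 0.7 with both genes, of the 7 B4GALT members 2, of the 16 GALNT members 2 and of the 9 FUT members 1. None of the 6 ST3GAL, 5 B3GNT, 4 ST8SIA, 2 ST6GAL and 5 other mannosidase members reached it with both, nor did B3GALT6 or ST6GALNAC6. MGAT1, MGAT2 and MGAT3 act in turn on the N-glycan core, MGAT1 adding the first branch, MGAT2 the second and MGAT3 the bisecting residue. MGAT4A, MGAT4B, MGAT5 and MGAT5B, which add further branches, had an r below 0.7 with both, from -0.74 (MGAT5B) to 0.23 (MGAT4B) with ST6GALNAC4 and from -0.63 (MGAT5B) to 0.54 (MGAT4B) with MAN1C1.

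MGAT3 was among the nearest members to both genes, with an r of 0.92 to each. Its CPM in WT cells were 42.9 and 69.1 with vehicle and 36.3 and 62.5 with SI-2, and in BR cells 34 and 21.2 with vehicle and 32.3 and 20.6 with SI-2. Every WT library was above every BR library, and within WT replicate 2 was higher while within BR replicate 2 was lower. B4GALT3 had a similar order of libraries at a higher level, with 408, 499, 355 and 479 CPM in WT vehicle 1 and 2 and WT SI-2 1 and 2, and 336, 254, 358 and 241 CPM in the BR libraries in the same order. Here the lowest WT library (355 CPM) and the highest BR library (358 CPM) overlapped. The r between MGAT3 and B4GALT3 was 0.99.

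MGAT1 and FUT1 followed MAN1C1 most closely, with r of 0.97 and 0.94. FUT1 had 25.4 and 45.2 CPM in WT vehicle, 11.9 and 37.4 in WT SI-2, while BR vehicle had 27.6 and 14.8 and BR SI-2 11.2 and 15.4. MGAT1 had 97.1 and 120 CPM in WT vehicle, 62.4 and 117 in WT SI-2, while BR vehicle had 91.5 and 71.6 and BR SI-2 69.8 and 67.7. In both genes replicate 2 of WT vehicle and of WT SI-2 was highest, and WT SI-2 replicate 1 was low, among the BR libraries in FUT1 and below them in MGAT1. The highest library was 4.02 times the lowest in FUT1, whereas MGAT1 kept to 62.4 to 120 CPM. GALNT2 followed these and MGAT3 in likeness to MAN1C1 (r = 0.91), and B4GALT7, which adds galactose to the proteoglycan linker, and ST3GAL6 were among the nearest to ST6GALNAC4 (r = 0.89 and 0.87).

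**Figure D4:**
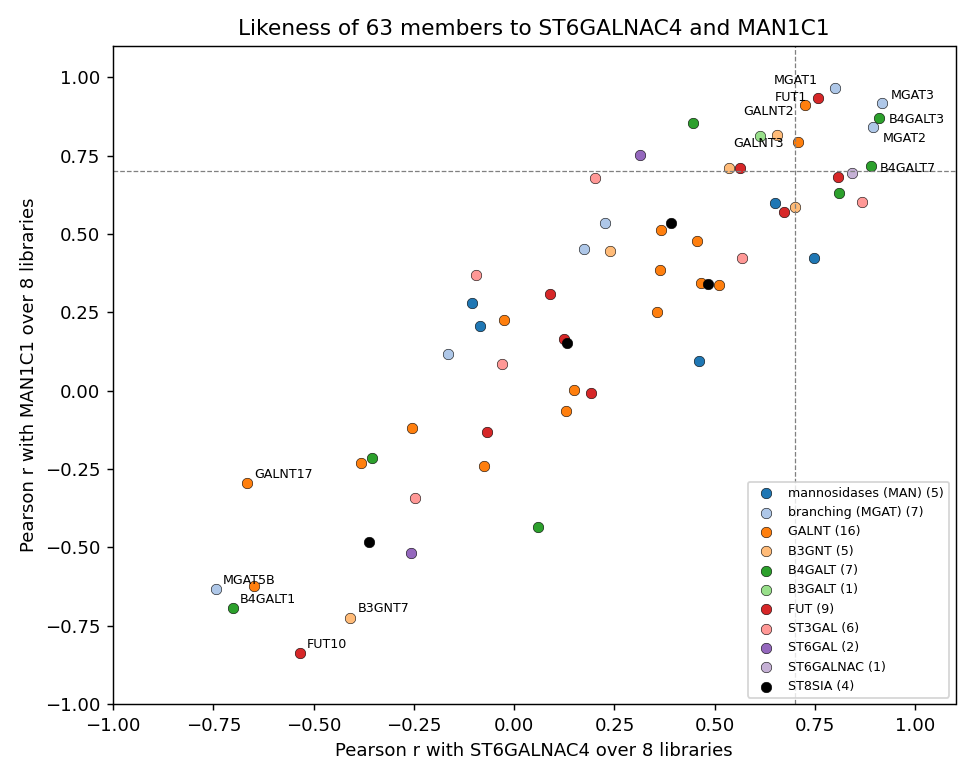
Pearson's r over 8 libraries of each of the 63 other tested members with ST6GALNAC4 (horizontal) and with MAN1C1 (vertical), coloured by family with the number tested in brackets and dashed lines at 0.7. The 8 members beyond both lines are 3 MGAT, 2 B4GALT and 2 GALNT genes and FUT1.

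Several members were like 1 of the 2 genes only. ST6GAL1 (r = 0.75 with MAN1C1 and 0.31 with ST6GALNAC4), B4GALT2 (0.85 and 0.45) and B3GALT6 (0.81 and 0.61) were nearer to MAN1C1. B3GALT6 had 38.7, 42.8, 25.1 and 44.5 CPM in the WT and 44.4, 30.4, 28.2 and 32.7 CPM in the BR libraries, with both replicate 1 SI-2 libraries lowest. ST6GAL1 had 72.7, 93.6, 64.8 and 99.8 CPM in the WT and 89.2, 78.6, 73.5 and 81.5 CPM in the BR libraries, which overlapped throughout.

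Nearer to ST6GALNAC4 were ST3GAL6 (r = 0.87, and 0.60 with MAN1C1), ST6GALNAC6 (0.84 and 0.70), B4GALT4 (0.81 and 0.63), FUT4, a Lewis antigen enzyme (0.81 and 0.68), and MAN1B1, which removes mannose early in N-glycan trimming (0.75 and 0.42). ST3GAL6 had 398, 368, 391 and 401 CPM in the WT libraries and 356, 240, 341 and 230 CPM in the BR libraries. Its BR replicate 2 libraries stood far below the other 6. MAN1B1 had 40.1 to 45.2 CPM in WT and 31.0 to 36.3 CPM in BR cells, without overlap. The leading mannosidase MAN1A1 had 152, 140, 118 and 149 CPM in the WT and 168, 101, 153 and 97.5 CPM in the BR libraries, with r of 0.65 and 0.60.

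Members with little likeness to either gene included ST8SIA2 (r = 0.13 and 0.15) and ST3GAL1 (-0.03 and 0.08). Others were MAN2A1, a mannosidase that trims after MGAT1 (-0.09 and 0.21), and GALNT10 (-0.07 and -0.24). ST8SIA2 lay between 116 and 170 CPM, with its 2 highest values in BR vehicle and BR SI-2 replicate 1. ST3GAL1 had an SD of log2 CPM of 0.15 and MAN2A1 of 0.17, both narrower than the median member. FUT8, which adds the core fucose of N-glycans, was intermediate (0.67 and 0.57, SD 0.23).

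A few members ran the other way. Most opposite to ST6GALNAC4 were MGAT5B (r = -0.74), B4GALT1 (-0.70) and GALNT17 (-0.67), and to MAN1C1 FUT10 (-0.84), B3GNT7 (-0.72) and B4GALT1 (-0.69). B4GALT1, which like B4GALT3 adds galactose to N-acetylglucosamine, had 23.3, 21.5, 27.5 and 24.6 CPM in the WT libraries and 20.4, 31.9, 23.8 and 34.4 CPM in the BR libraries. Its 2 highest values were in BR replicate 2 with vehicle and SI-2, the libraries in which B4GALT3 was lowest. FUT10, a protein O-fucosyltransferase by its RefSeq name POFUT3, was lowest at 8.58 and 10.3 CPM in WT vehicle and WT SI-2 replicate 2, where MAN1C1 was highest.

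Over all tested genes, those most like ST6GALNAC4 were CDK2AP2 (r = 0.99), CLTA, FKBP11, TM9SF2 and CRELD2 (all 0.99), and those most like MAN1C1 were VEGFA (0.996), ARPC3, SET, ELOVL5 and ERP29 (all 0.99). CRELD2, FKBP11 and ERP29 encode proteins of the endoplasmic reticulum, and CLTA a clathrin light chain. The median deviation of 16 unfolded protein response genes, a stress response of that compartment, was 0.58 and 0.31 in WT vehicle, -0.02 and 0.25 in WT SI-2, while BR vehicle had 0.25 and -0.66 and BR SI-2 0.01 and -0.80. It was lowest in BR vehicle and BR SI-2 replicate 2, where ST6GALNAC4 was also lowest. Its r was 0.90 with ST6GALNAC4, 0.69 with MAN1C1, 0.94 with ST3GAL6, 0.89 with MGAT2 and 0.87 with B4GALT3. For 20 tested amino acid response genes the r was 0.91 with ST6GALNAC4, 0.94 with MAN1C1, 0.97 with MGAT3 and 0.96 with B4GALT3. The part of either response in these levels was not tested.

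The gene next to ST6GALNAC4 in the RefSeq order, PIP5KL1, was looked up after the values had been seen and had an r of 0.96 with it. PIP5KL1 had 40.4 and 70.1 CPM in WT vehicle, 29.9 and 62.3 in WT SI-2, while BR vehicle had 25.7 and 13.3 and BR SI-2 13.9 and 10.4. ST6GALNAC6, the neighbour on the other side, had an r of 0.84, and neither gene overlaps ST6GALNAC4 in RefSeq. DPM2, beyond PIP5KL1, had 30.1 to 39.8 CPM in all libraries.

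The first comparison asked how the enzymes differed between BR and WT cells, taking vehicle and SI-2 together as 4 libraries a line. Most members had lower levels in BR cells, but no member passed the test. Of the 65 tested members 45 had lower and 20 higher fitted values in BR cells, and the median of their log2 fold changes was -0.10, against 0.00 over all 13520 genes. At an adjusted p under 0.05 (edgeR quasi-likelihood, Benjamini-Hochberg) 0 members were called, against 49 of all genes (0.362%). Among the 63 members other than ST6GALNAC4 and MAN1C1, 10 had an unadjusted p under 0.05, 2 higher and 8 lower, where all genes had 14.4%, in detail 6.29% higher and 8.08% lower. DESeq2 called 5 of these 63, all lower, where it called 399 of all 13520 genes (2.95%). The 4 BR libraries lay wholly below the 4 WT libraries in 6 of the 63 (4.36% of all genes) and wholly above them in 1, GALNT17 (3.78%). The p-values measure the spread between these libraries, which may be technical. In each line the replicate 2 libraries of vehicle and SI-2 lay very close, so the 4 libraries a line may not be independent. The p-values and standard errors of BR against WT may then be too small.

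ST6GALNAC4 had 5.71 ± 2.89 CPM in BR and 18.4 ± 5.43 in WT cells (SD, n = 4 each), a log2 fold change of -1.69, and MAN1C1 9.62 ± 3.64 and 22.3 ± 13.6 CPM (-1.21). Among members without a part in the choice, the smallest p belonged to B4GALT4, a galactosyltransferase of glycolipids and sulfated glycans. It had 5.09, 5.84, 5.43 and 5.62 CPM in the BR and 7.90, 8.25, 7.53 and 8.56 CPM in the WT libraries. These did not overlap and differed by -0.55 ± 0.12 (log2, SE, edgeR adjusted p = 0.0963). DESeq2 gave an adjusted p of 0.0136, and edgeR with the replicate number as a block 0.0465.

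ST6GALNAC6, which adds sialic acid to GalNAc mainly in glycolipids, had 7.46, 6.32, 8.77 and 7.91 CPM in the BR and 10.7, 11.8, 10.6 and 13.2 CPM in the WT libraries. Again no BR library reached the lowest WT library (log2 fold change -0.61 ± 0.14 SE, edgeR adjusted p = 0.109, DESeq2 adjusted p = 0.00767). MGAT3 differed by -0.96 ± 0.23 (SE, edgeR adjusted p = 0.125, DESeq2 adjusted p = 0.00546). ST3GAL5, which makes ganglioside GM3, had 12.3 ± 2.25 CPM in BR and 18.4 ± 3.01 in WT cells, and B4GALT3 had 297 ± 58.3 and 435 ± 66.4 CPM (SD, n = 4 each). Their log2 fold changes were -0.58 and -0.55, each with an edgeR adjusted p of 0.171 and a DESeq2 adjusted p of 0.0398, and in both genes the highest BR library was above the lowest WT library.

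On the higher side in BR cells were MGAT5B, a branching enzyme for O-mannose glycans (0.65 ± 0.24 SE, edgeR adjusted p = 0.263, 19 to 46 counts), GALNT17 (0.24 ± 0.11, adjusted p = 0.34) and MGAT5 (0.34 ± 0.16, adjusted p = 0.376). MGAT5, which adds the branch that carries long lactosamine chains, had 154 and 160 CPM in replicate 1 of BR vehicle and BR SI-2 and 91.0 to 111 CPM in the other 6 libraries, so that its higher BR mean rested on 2 libraries. Without BR SI-2 replicate 1 its fold change was 0.22.

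By family, the 6 sialyltransferases of the ST3GAL family had fold changes between -0.58 (ST3GAL5) and 0.19 (ST3GAL3), with ST3GAL6 at 292 ± 66.0 CPM in BR and 389 ± 15.1 in WT cells. The B4GALT family had 6 of 7 members lower (median -0.21), the MGAT family 5 of 7 (-0.23), the FUT family 6 of 9 (-0.16) and the mannosidases 4 of 6 (-0.10). The 16 GALNT members were divided, with 9 lower and 7 higher (median -0.06).

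**Figure D5:**
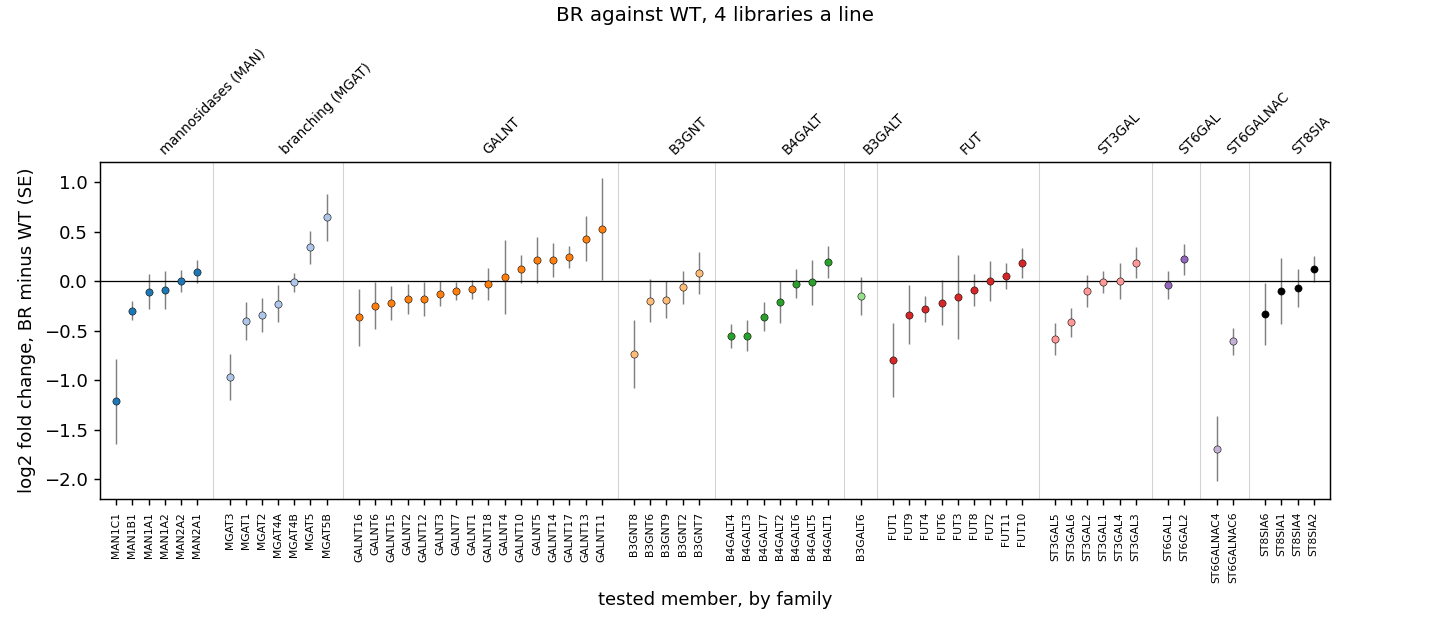
Fitted log2 fold change of BR against WT cells (4 libraries each, bars are standard errors) for the 65 tested members, ordered within each family, with values below 0 lower in BR cells. ST6GALNAC4 (-1.69), MAN1C1 (-1.21) and MGAT3 (-0.96) lie lowest, and the GALNT family spreads to both sides of 0.

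Genes that supply the same pathway were taken from lists of substrates and earlier steps. Of 6 genes for sialic acid synthesis and transport, 4 had lower fitted values in BR cells. The share of all genes past the threshold was 0.362%, and 1 of the 6 passed. It was NANS, which makes the phosphate of sialic acid, with 49.1 ± 3.91 CPM in BR and 78.0 ± 9.84 in WT cells (log2 fold change -0.67 ± 0.11 SE, edgeR adjusted p = 0.034). Of 19 genes for the proteoglycan linker and glycosaminoglycans, 12 had lower fitted values (median of the 19, -0.05) and 1 passed. It was EXTL2, which adds N-acetylglucosamine or GalNAc to the linker (10.8 ± 0.447 against 18.6 ± 2.61 CPM, -0.79 ± 0.12 SE, edgeR adjusted p = 0.0238). Both calls were lost in most fits without 1 library (NANS passed in 1 of 8 and EXTL2 in 2 of 8), with adjusted p up to 0.143 and 0.1, and the direction was lower in every alternative. In the earlier steps no gene passed the test, and the fitted values ran lower in BR cells. The lowest median deviations were in BR vehicle and BR SI-2 replicate 2, the 2 BR libraries that lay very close. They were -0.238 and -0.387 for oligosaccharyltransferase, against 0.047 and -0.091 in replicate 1 of the same conditions. For ER glucosidases and lectin chaperones they were -0.345 and -0.416, against 0.152 and -0.061, and WT SI-2 replicate 1 had -0.004. All 11 tested oligosaccharyltransferase subunits had negative fold changes (median -0.42, smallest adjusted p = 0.118 for RPN2), as had 12 of 13 ER glucosidases and lectin chaperones (-0.30), 15 of 21 genes of N-glycan precursor assembly (-0.13) and 12 of 15 nucleotide sugar transporters (-0.11). The 16 unfolded protein response genes (median -0.50) and the 20 amino acid response genes (-0.49) all had negative values, and neither list had a member past the threshold. This direction was not particular to BR against WT. All 16 unfolded protein response genes were also lower with SI-2 against vehicle (median -0.29) and in replicate 2 against replicate 1 (-0.31). With SI-2, 16 of 20 amino acid response genes and all 11 oligosaccharyltransferase subunits were lower, and in replicate 2 these were 8 and 8. Of the remaining lists the medians were -0.02 for O-glycan core extension (5 tested), -0.04 for sialidases (2 tested), 0.10 for GDP-fucose synthesis (4 tested) and -0.05 for the conserved oligomeric Golgi complex (8 tested).

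The vehicle libraries alone, 2 a line, were also compared. With edgeR 0 of 13896 genes passed the test (0%) and so 0 members. At an unadjusted p under 0.05 there were 4 of the 63 other members, where all genes had 3.89%. All 4 were lower in BR cells (2.36% of all genes) and 0 higher (1.53%), namely ST6GALNAC6, MGAT3, B4GALT4 and B4GALT3. DESeq2 called 28 genes (0.201%) and 0 members. ST6GALNAC6 differed by -0.71 ± 0.21 (SE, edgeR adjusted p = 0.967). MGAT5, which led on the higher side, differed by 0.32, and by 0.01 without BR vehicle replicate 1. This comparison shares its 4 libraries with the one of all 8.

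The study also asked what SI-2 changed in each line. No member and no gene passed the test over both lines together (0 of 13520, 0%, edgeR), and DESeq2 also called 0. These fits did not pair vehicle with SI-2 libraries of the same number within a line. At an unadjusted p under 0.05 there were 2 members, where all genes had 2.22%. They were 1 of the higher side (1.43% of all genes) and 1 of the lower side (0.784%), namely ST8SIA4, which makes polysialic acid (54.5 ± 8.79 CPM with SI-2 and 41.6 ± 7.91 with vehicle, SD, n = 4 each, 0.39 ± 0.16 SE on the log2 scale), and ST8SIA1, which makes ganglioside GD3 (1.03 ± 0.367 and 1.64 ± 0.209 CPM, -0.66 ± 0.28), both with an edgeR adjusted p of 0.999. ST8SIA1 had 11 counts in WT SI-2 replicate 1 and 18 to 34 elsewhere, and without that library its fold change was -0.47.

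The other members named on either side did not pass the test either. GALNT11 differed by 0.99 ± 0.46, and by 0.44 without BR SI-2 replicate 2, and FUT3, which makes Lewis antigens, by 0.73 ± 0.38, and by 0.49 without BR vehicle replicate 1, both at low counts. On the lower side GALNT1, a widely expressed O-glycan starter, had 49.2 ± 3.33 CPM with SI-2 and 55.7 ± 1.64 with vehicle (-0.18 ± 0.09), and FUT2, the secretor enzyme, 4.08 ± 0.867 and 5.18 ± 0.16 CPM (-0.34 ± 0.18, and -0.21 without BR SI-2 replicate 1). In these 2 genes the SI-2 libraries lay wholly below the vehicle libraries, as in 0.777% of all genes, and in 0 members wholly above them (0.666%), with edgeR adjusted p of 0.999. Within lines edgeR called 0 members in BR (0 of 13896 genes, 0%) and 0 in WT cells (0%). DESeq2 called 1 gene in each line and 0 members, and without BR SI-2 replicate 1 edgeR called 67 genes in BR cells, 0 of them members. At an unadjusted p under 0.05 there was 1 member in BR cells, where all genes had 1.2%, and 0 in WT cells, where all genes had 0.533%. The smallest p among members was that of FUT3 in BR cells (1.39 ± 0.55, 4 and 9 counts with vehicle, 22 and 13 with SI-2, edgeR adjusted p = 1) and of ST8SIA4 in WT cells (0.47 ± 0.24, adjusted p = 1). These were 0.91 for FUT3 without BR SI-2 replicate 1, and for ST8SIA4 0.18 without WT SI-2 replicate 1 and 0.70 without WT SI-2 replicate 2. The test of the difference between the SI-2 effects in BR and WT cells called 0 of 13896 genes (0%) and 0 members, also at an unadjusted p under 0.05 (0.533% of all genes), where DESeq2 called 1 gene and 0 members. FUT3 had the smallest p of the members with a higher difference (1.19 ± 0.76) and GALNT6, another O-glycan starter, of those with a lower difference (-0.64 ± 0.48). Without BR SI-2 replicate 1 these were 0.71 and -0.25.

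Set side by side within replicate numbers, a view chosen after seeing the data and with no test, SI-2 and vehicle libraries differed unequally. In replicate 2 the median absolute difference of the 65 members was 0.11 in WT and 0.10 in BR cells (log2 CPM), and in replicate 1 it was 0.27 and 0.28. With SI-2 against vehicle, ST6GALNAC4 differed by -1.10 in WT replicate 1 and -0.87 in BR replicate 1, and by 0.09 and -0.07 in replicate 2. MAN1C1 differed by -0.87 and -0.68 in replicate 1 and by -0.29 and -0.17 in replicate 2.

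The replicate number itself was compared as the remaining label, with 4 libraries a side over lines and treatments. It called 125 of 13520 genes (0.925%), but 0 members. At an unadjusted p under 0.05 there were 11 members, 6 higher and 5 lower in replicate 2, where all genes had 16.9% (8.63% higher and 8.28% lower). Lower in replicate 2 were ST6GAL2, which sialylates galactose (51.6 ± 5.82 against 69.2 ± 6.89 CPM, SD, n = 4 each), the mannosidase MAN1A2 (55.4 ± 2.70 against 76.6 ± 14.1 CPM) and GALNT10 (93.3 ± 5.48 against 120 ± 13.2 CPM). Higher were ST3GAL4 (11.8 ± 1.07 against 8.67 ± 0.737 CPM), MGAT4A (9.09 ± 1.19 against 6.64 ± 0.767 CPM) and ST3GAL2 (36.9 ± 5.24 against 28.9 ± 2.63 CPM). Their log2 fold changes were -0.42, -0.47, -0.36, 0.44, 0.45 and 0.36, with edgeR adjusted p from 0.0977 to 0.166. The libraries of the 2 numbers did not overlap in ST6GAL2, MAN1A2 and GALNT10 on the lower side (6.08% of all genes) and in ST3GAL4 and ST3GAL2 on the higher side (5.91%). DESeq2 called 746 of all 13520 genes (5.52%) and 4 members, ST6GAL2, MAN1A2, GALNT10 and ST3GAL4. Of the gene lists, EDEM3 and MANEA, which act on mannose residues of N-glycans, were the members past the threshold, both lower in replicate 2 (log2 fold change -0.61 and -0.54, edgeR adjusted p = 0.0385 and 0.0468). Without any 1 of the 8 libraries neither passed (adjusted p up to 0.111 and 0.143). MAN1C1 had 20.4 ± 15.5 CPM in replicate 2 and 11.5 ± 3.57 in replicate 1, and ST6GALNAC4 12.0 ± 9.55 and 12.1 ± 7.34 CPM, so that the replicate number did not order ST6GALNAC4 over both lines.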

How the data were processed

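Gene expression was measured by RNA sequencing of 8 LP-1 libraries on a BGISEQ-500 instrument. Per the study's methods, low-quality reads were removed before expression was calculated. The submitters' processing notes name BWA, Bowtie2, RSEM and hg19, and versions, roles and strand setting are not given in the sources used here. The authors deposited estimated counts and FPKM per gene, and estimated counts per transcript. FPKM divides by gene length and library size. The header of these columns names no unit, and they were read as FPKM from their values. The averaged columns of the authors, and their tables of fold changes and p-values between conditions, were not used.

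Estimated counts were rounded to whole numbers and tested with edgeR 4.0.16 (quasi-likelihood, TMM scaling, filterByExpr, Benjamini-Hochberg, threshold 0.05), with DESeq2 1.42.0, limma 3.58.1 on log2(FPKM + 1) and log2(FPKM + 0.1), other scalings and filters, a replicate block and leaving out each library as alternatives, in R 4.3.3. Line, treatment and replicate number were each compared as 4 against 4 libraries over 13520 genes, and conditions as 2 against 2 over 13896 genes in a fit of all 8 libraries. Log2 CPM for spreads and r used a prior count of 2. The edgeR fits of line, treatment and vehicle libraries were run on simulated counts with known changes. The simulated libraries were independent, unlike the replicate 2 libraries that lay very close here. The simulation therefore cannot show whether the p-values hold for these data. Library totals of about equal size leave counting error largest in the 11 tested members with fewer than 50 counts in every library.

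The members and gene lists were chosen with earlier results of these data known. Named members were ST6GALNAC4 and MAN1C1, the highest and the most variable tested member of each family, the members with the smallest p on each side of each comparison, and the 5 members and 5 genes most like the pair. Listed pathway genes past the threshold were named too, and further names were added after their values were seen. Promoter windows came from RefSeq (GRCh38.p14). FUT10 and FUT11 are POFUT3 and POFUT4 there, and the other 80 symbols are equal.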

Additional observations from a re-analysis of the deposited data

Results flagged for a closer look

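Of 56 groups of 4 libraries checked over 28 named members, 3 held a library far from the other 3 by Dixon's criterion, which is about the number chance gives at 1 group in 20. GALNT2 stood out by its high value in BR vehicle replicate 1 (log2 CPM 8.14, the next BR library 7.69, ratio 0.867). ST8SIA4 was low in the same library (5.02, the next 5.68, ratio 0.935). FUT2 was low in BR SI-2 replicate 1 (1.59, the next 2.35, ratio 0.884).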

How the results depend on the processing

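For BR against WT, edgeR called 0 members, DESeq2 6 (399 genes in all, against 49) and edgeR with the replicate block 2, B4GALT4 and ST6GALNAC4 (155 genes). ST6GALNAC4, chosen for its spread, was among the calls of both, and without it they were 5 and 1. Condition terms left 19 genes. Leaving out single libraries gave 0 to 1 members. The 1 was again ST6GALNAC4, without WT SI-2 replicate 1 (125 genes) or without BR vehicle replicate 1 (86 genes), and the lowest number of genes was 21, without WT SI-2 replicate 2. For replicate 2 against 1, DESeq2 called 4 members (746 genes, against 125), condition terms left 0 genes, limma 62 and 56, and leaving out libraries 0 to 93 genes. The deviations of same-numbered libraries had correlations of 0.44 and 0.37 between vehicle and SI-2 of 1 line and from -0.12 to 0.20 between lines. The labels tie the numbers to no shared culture, and between lines not every correlation was over 0.1. The main fits therefore did not pair the samples. Within a line the correlations were higher, and a pairing of vehicle with SI-2 by number within each line was not tested. The replicate block takes the number as common to both lines, and with it SI-2 against vehicle called 0 genes. Within BR cells, SI-2 called 67 genes and 0 members without BR SI-2 replicate 1, against 0 genes. The number of members like both ST6GALNAC4 and MAN1C1, 8, became 5 with log2(FPKM + 1), 3 at an r of at least 0.8 (chosen after seeing the data) and 5 to 13 without single libraries, 5 without WT SI-2 replicate 2, 12 without BR vehicle replicate 1 and 13 without WT SI-2 replicate 1. MGAT1, MGAT2, MGAT3, B4GALT3 and FUT1 were among them at an r of 0.7 in every alternative run. The cause of these shifts was not tested. Of 591 alternative values of the 31 named fold changes, 541 kept direction and side of the threshold, 11 newly passed the threshold, 39 no longer passed it (all of NANS, EXTL2, EDEM3 and MANEA) and 0 reversed. Only these 4 genes passed in the main fits, so the other fold changes kept their side by not passing. NANS still passed in 11 of 20 alternatives, EXTL2 in 13 of 20, EDEM3 in 9 of 18 and MANEA in 4 of 18.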
